A study of Mus musculus with 2 samples.

Results

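The cytochrome c oxidase genes described here are 10 nuclear genes, chosen by symbol from the 32285 genes counted in both libraries: Cox4i1, Cox4i2, Cox6a1, Cox6a2, Cox6b1, Cox7a1, Cox7a2, Cox7a2l, Cox8a and Ndufa4l2. All 10 were found in both count matrices. The E4 group consisted of female mice homozygous for human APOE E4, and the E3 group of female mice homozygous for human APOE E3. In both groups the human allele replaces the mouse gene and is driven by the mouse Apoe promoter, so neither group carries mouse Apoe, and no mice with the mouse gene were included. The mice were 11 to 12 months old, and the right hemispheres of 3 perfused mice per genotype, without brainstem and cerebellum, were pooled, dissociated with enzymes at raised temperature and sequenced as 1 library of single cells per genotype. With 1 pooled library per genotype, genotype, pool and library cannot be told apart, no test between genotypes was possible, and every interval below covers counting error only, at a level of 95%.

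Cytochrome c oxidase is the last complex of the mitochondrial respiratory chain, where electrons from cytochrome c are passed to oxygen. Its catalytic core is encoded by mitochondrial DNA, while the small nuclear subunits around it tune its assembly and activity. Several of these subunits exist as paralogous isoforms: Cox4i2 can replace the ubiquitous Cox4i1 and is known from the lung, where it takes part in the response of airway and vessel to low oxygen, Cox6a2 and Cox7a1 are the heart and skeletal muscle forms of Cox6a1 and Cox7a2, and Ndufa4l2, a gene induced by low oxygen in other cells, is the paralogue of Ndufa4, a protein first assigned to complex I and later to the oxidase. Mural cells, which comprise the pericytes of capillaries and the smooth muscle cells of arteries and veins, wrap the endothelium and set vessel tone.

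The isoforms of a pair can be counted apart only if their transcripts differ in sequence. The last 90 coding bases of 3 pairs that carry the cell type patterns below are shown for this reason, 5′ to 3′ on the coding strand as annotated by GENCODE on GRCm38, with capitals at the bases that differ from the paralogue.
Cox4i2: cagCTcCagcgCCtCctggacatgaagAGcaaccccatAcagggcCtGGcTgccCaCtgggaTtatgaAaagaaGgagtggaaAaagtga
Cox4i1: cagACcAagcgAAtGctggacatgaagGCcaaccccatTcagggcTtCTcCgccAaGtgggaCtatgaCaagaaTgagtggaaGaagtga
Ndufa4l2: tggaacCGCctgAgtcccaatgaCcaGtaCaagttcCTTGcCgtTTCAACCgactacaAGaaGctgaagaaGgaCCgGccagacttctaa
Ndufa4: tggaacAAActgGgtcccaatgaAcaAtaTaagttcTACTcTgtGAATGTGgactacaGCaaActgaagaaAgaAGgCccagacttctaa
Cox6a2: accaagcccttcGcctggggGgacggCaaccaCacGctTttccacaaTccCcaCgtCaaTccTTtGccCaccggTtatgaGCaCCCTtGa
Cox6a1: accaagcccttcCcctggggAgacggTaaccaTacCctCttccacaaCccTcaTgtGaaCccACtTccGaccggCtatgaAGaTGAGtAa
In these windows 19 bases differ between Cox4i2 and Cox4i1, 26 between Ndufa4l2 and Ndufa4, and 23 between Cox6a2 and Cox6a1. Over the aligned coding sequences, identity was 67.1% for Cox4i2 and Cox4i1, 66.9% for Ndufa4l2 and Ndufa4, 62.6% for Cox6a2 and Cox6a1, 63.7% for Cox7a1 and Cox7a2, and 64.2% for Cox7a2l and Cox7a2. The longest run of bases that both transcripts of a pair hold was 28, for Ndufa4l2 and Ndufa4. No run of 91 bases in the last 500 bases of a member's transcript (485 for Cox7a1) was found in another annotated gene, except for 16 of 410 runs of Cox6a1, which the gene AC148174.2 also holds.

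On GRCm38, Cox4i2 (ENSMUSG00000009876) lies at chr2:152754173-152765037 on the plus strand and Ndufa4l2 (ENSMUSG00000040280) at chr10:127514967-127517154 on the plus strand. Cox6a2 lies at chr7:128205435-128206387 on the minus strand and Cox7a1 at chr7:30184144-30186078 on the plus strand. Of the ubiquitous forms, Cox4i1 is at chr8:120668222-120674207, Cox6a1 at chr5:115345642-115348981, Cox6b1 at chr7:30616861-30626151, Cox7a2 at chr9:79755361-79759878, Cox7a2l at chr17:83501918-83517330 and Cox8a at chr19:7215153-7217616. Cox4i1 overlaps Emc8, Cox6a2 overlaps Itgad and Ndufa4l2 overlaps Shmt2, each on the opposite strand. In mural-like cells these neighbours were low, with 35.5 CPM in E4 and 43.9 CPM in E3 for Emc8, and 11.3 CPM in E4 and 14.6 CPM in E3 for Shmt2, where CPM is the unique molecular identifiers (UMIs) of a gene per 1000000 UMIs of a class of cells.

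The E4 library held 13802 barcodes with a median of 4085 UMIs, and the E3 library 11485 barcodes with a median of 3784 UMIs. A total of 46 barcodes occurred in both libraries. After filtering, 13528 E4 cells and 11288 E3 cells were clustered without the oxidase genes, and 33 of 40 clusters were given a class by markers. The mural-like class held 198 E4 cells and 95 E3 cells, which is 1.46% of E4 cells and 0.842% of E3 cells, with a median of 2386 UMIs per cell in E4 and 2029 in E3. It is set against the other 11 named classes, with 11316 E4 cells and 9266 E3 cells, whose median was 4435 UMIs in E4 and 4199.5 in E3.

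The mural-like cells formed a pair of clusters, each passing 8 of the 10 mural markers. The larger, with 144 E4 cells and 77 E3 cells, was led by Kcnj8 and also by Vtn, Abcc9 and Atp13a5, genes of brain pericytes. Kcnj8, a potassium channel subunit, stood at 1236 CPM in E4 and 1217 CPM in E3 in this cluster, against 1.58 CPM in E4 and 0.940 CPM in E3 in all other named cells. The smaller, with 54 E4 cells and 18 E3 cells, was led by Tagln, Myh11 and Acta2, genes of the contractile apparatus of smooth muscle. Acta2 reached 11120 CPM in E4 and 10979 CPM in E3 there, against 71.1 CPM in E4 and 48.0 CPM in E3 in the cluster led by Kcnj8. Abcc9, the partner of Kcnj8, had no UMI in the Tagln-led cluster in either library. Other markers were shared by the clusters. The pericyte marker Rgs5 stood at 3864 CPM in E4 and 2479 CPM in E3 in the Tagln-led cluster, against 6866 CPM in E4 and 5970 CPM in E3 in the Kcnj8-led cluster. The smooth muscle marker Myl9 stood at 1584 CPM in E4 and 1415 CPM in E3 in the Kcnj8-led cluster, against 4805 CPM in E4 and 4724 CPM in E3 in the Tagln-led cluster. The Tagln-led cluster made up 54 of 198 mural-like cells in E4 and 18 of 95 in E3, and it held 325081 of 620452 mural-like UMIs in E4 and 106478 of 273312 in E3. Values summed over the mural-like class therefore weigh the clusters differently in E4 and E3, and the Cox4i2 and Ndufa4l2 values are also given per cluster.

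Of the 10 genes, Cox4i2 and Ndufa4l2 were more abundant in mural-like cells than in the other named cells by a wide margin, in E4 and in E3 alike. These 2 members were at least 2-fold higher there than in the other named cells, and the same held for 9.22% of all 15185 genes with a value in E4 and for 11.5% of 14840 genes in E3. Both were also the only members at least 2-fold higher in each mural cluster, against 11.2% of genes in E4 and 12.7% in E3 for the Kcnj8-led cluster and 9.44% in E4 and 12.1% in E3 for the Tagln-led cluster. Cox4i2 stood at 475 CPM (423 to 533) in E4 mural-like cells and 552 CPM (468 to 648) in E3 mural-like cells. In the other named cells it stood at 3.43 CPM in E4 and 3.70 CPM in E3, so mural-like cells were 139-fold higher in E4 and 149-fold higher in E3. Ranked by this fold, Cox4i2 was the 49th gene in E4 and the 33rd in E3. The other named cells leave out the cluster with endothelial and pericyte markers described below. That cluster held 289 Cox4i2 UMIs in E4 and 242 in E3, against 215 in E4 and 185 in E3 in all other named cells. Folds and ranks with that cluster included were not made. The next class after mural-like cells was endothelial-like in E4, with 7.89 CPM, and astrocyte-like in E3, with 8.13 CPM.

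As a share of the UMIs of the Cox4i1 and Cox4i2 pair, which 3′ counting records as 1 tag per molecule and so without a need to scale for length, Cox4i2 made up 33.1% (30.0 to 36.3%; 295 of 891 UMIs) in E4 mural-like cells and 41.7% (36.6 to 47.0%; 151 of 362 UMIs) in E3 mural-like cells. Cox4i1 was the more abundant form of the class in both libraries by these sums, but in E3 the Cox4i2 share was 50.02% with cells weighted alike and 55.3% with cells thinned to 1000 UMIs. The intervals of E4 and E3 did not overlap for the whole class, in which the Tagln-led cluster held a larger part of the UMIs in E4 than in E3. In endothelial-like cells the Cox4i2 share was 1.34% in E4 and 0.866% in E3, and in astrocyte-like cells 0.848% in E4 and 0.906% in E3. It was lowest in macrophage-like cells in E4, at 0%, and in choroid plexus-like cells in E3, at 0.0259%. The erythroid-like class had too few UMIs to place it, with 2 Cox4i2 UMIs of 38 in E4 and 1 of 57 in E3. The plot of isoform shares by class shows mural-like cells apart from every other class for Cox4i2 and Ndufa4l2, and not for Cox6a2 or Cox7a1.

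**Figure D1:**
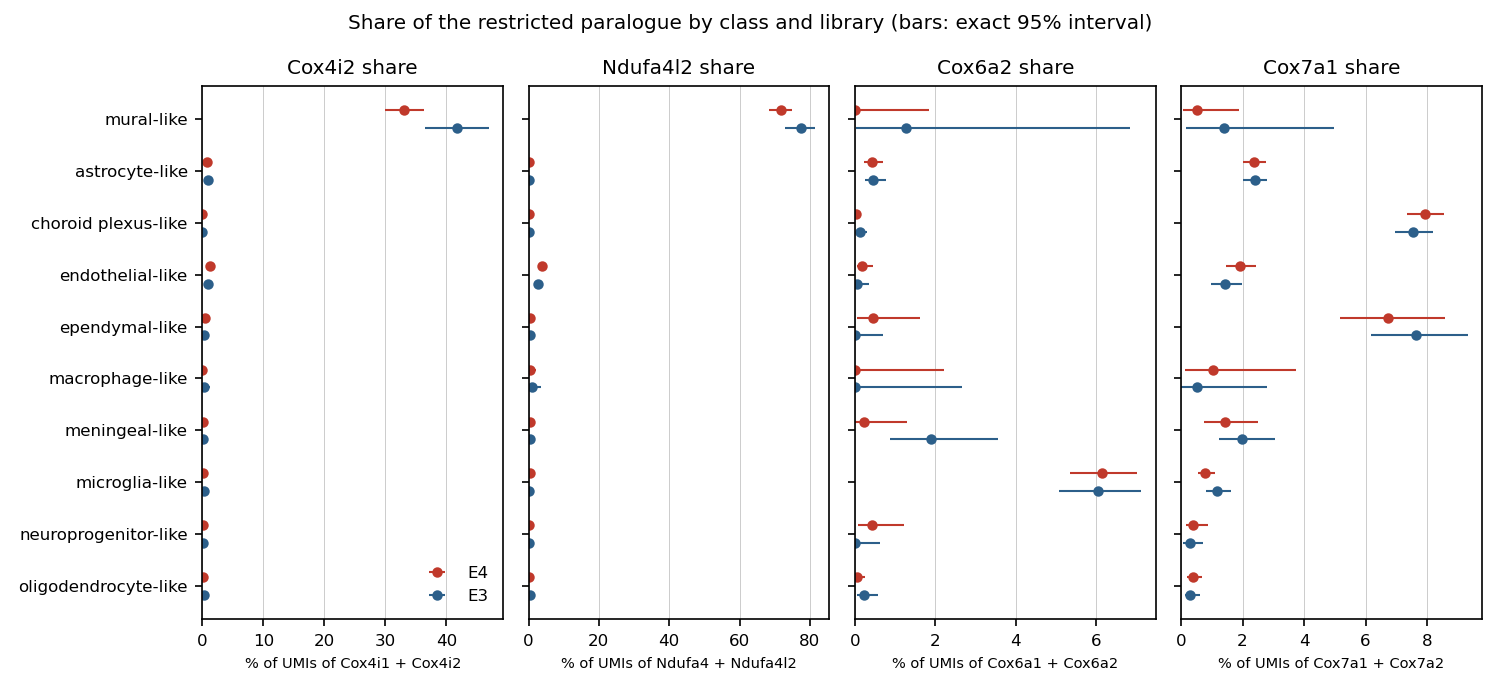
Share of the tissue isoform in the UMIs of its pair (percent, horizontal axis) for Cox4i2, Ndufa4l2, Cox6a2 and Cox7a1 in 10 classes of cells, with E4 points above E3 points and bars for exact 95% intervals of counting error. Mural-like cells stand apart for Cox4i2 (33.1% in E4 and 41.7% in E3) and Ndufa4l2 (71.7% in E4 and 77.4% in E3), microglia-like cells for Cox6a2 (6.15% in E4 and 6.04% in E3), and choroid plexus-like and ependymal-like cells for Cox7a1.

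Within the mural-like class, the share of Cox4i2 differed between the clusters. In the Kcnj8-led cluster Cox4i2 made up 46.9% of the pair in E4 (42.4 to 51.3%; 238 of 508 UMIs) and 50.4% in E3 (44.0 to 56.8%; 125 of 248 UMIs), close to parity with Cox4i1. In the Tagln-led cluster it made up 14.9% in E4 (11.5 to 18.8%; 57 of 383 UMIs) and 22.8% in E3 (15.5 to 31.6%; 26 of 114 UMIs). The intervals of the clusters did not overlap in either library, whereas the intervals of E4 and E3 overlapped within each cluster. The Cox4i2 level was 806 CPM in E4 and 749 CPM in E3 in the Kcnj8-led cluster, and 175 CPM in E4 and 244 CPM in E3 in the Tagln-led cluster. Even the Tagln-led cluster was 51.2-fold above the other named cells in E4 and 66.0-fold above them in E3. Cox4i1, by contrast, was at 914 CPM in E4 and 737 CPM in E3 in the Kcnj8-led cluster and at 1003 CPM in E4 and 826 CPM in E3 in the Tagln-led cluster, against 937 CPM in E4 and 1008 CPM in E3 in the other named cells. The gap in share between the clusters was thus a gap in Cox4i2 and not in Cox4i1. Per UMI of the pericyte markers Vtn, Rgs5, Kcnj8, Abcc9 and Higd1b together, the Tagln-led cluster had 0.0333 Cox4i2 UMIs in E4 and 0.0741 in E3. The Kcnj8-led cluster had 0.0304 in E4 and 0.0295 in E3. The part of pericyte RNA in the Cox4i2 and Ndufa4l2 values of the Tagln-led cluster was not tested.

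Ndufa4l2, whose product belongs to the same small family as the oxidase-associated Ndufa4, was the more extreme of the pair of mural genes. It stood at 948 CPM (873 to 1030) in E4 mural-like cells and 1105 CPM (984 to 1240) in E3 mural-like cells, against 4.03 CPM in E4 and 2.96 CPM in E3 in the other named cells. The fold over the other named cells was 235 in E4 and 373 in E3, ranking 28th of all genes in E4 and 15th in E3. The cluster with endothelial and pericyte markers, left out of this fold, held 729 Ndufa4l2 UMIs in E4 and 614 in E3. All other named cells together held 253 in E4 and 148 in E3. Ndufa4l2 made up 71.7% of the UMIs of Ndufa4 and Ndufa4l2 in E4 mural-like cells and 77.4% in E3 mural-like cells. Under other ways of processing, this share of the whole class ran from 59.7 to 81.6% in E4 and from 60.1 to 86.0% in E3. In the Kcnj8-led cluster the share was 90.9% in E4 (460 of 506 UMIs) and 89.6% in E3 (259 of 289 UMIs). In the Tagln-led cluster it was 40.8% in E4 (128 of 314 UMIs) and 42.6% in E3 (43 of 101 UMIs). Endothelial-like cells, the next class, had 3.70% in E4 and 2.71% in E3.

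Unlike Cox4i1, the ubiquitous Ndufa4 was low where its paralogue was high. It stood at 156 CPM in E4 and 180 CPM in E3 in the Kcnj8-led cluster, at 572 CPM in E4 and 545 CPM in E3 in the Tagln-led cluster, and at 680 CPM in E4 and 749 CPM in E3 in the other named cells. Ndufa4l2 stood at 1557 CPM in E4 and 1552 CPM in E3 in the Kcnj8-led cluster and at 394 CPM in E4 and 404 CPM in E3 in the Tagln-led cluster. The plot of levels in the mural clusters shows both genes crossing, while Cox4i1 and the other ubiquitous subunits differ less between the groups of cells. The widest of these were Cox8a and Cox7a2, which in E4 were 1.62-fold and 1.61-fold higher in the Tagln-led cluster than in the other named cells, and in E3 1.49-fold and 1.02-fold.

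**Figure D2:**
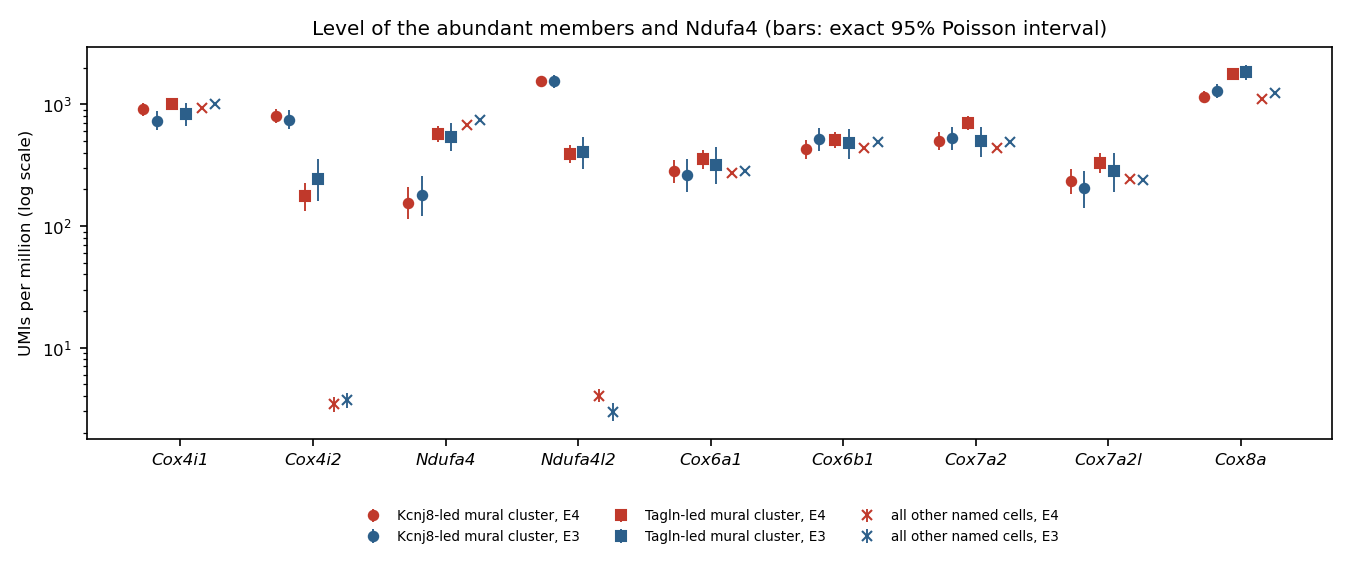
Level (CPM, log axis) of 9 genes in the Kcnj8-led cluster (circles), the Tagln-led cluster (squares) and all other named cells (crosses), with E4 left of E3. Cox4i2 and Ndufa4l2 lie above the other named cells in both clusters and both libraries, and Ndufa4 lies lowest in the Kcnj8-led cluster, at 156 CPM in E4 and 180 CPM in E3.

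With all UMIs counted, cells that carried both isoforms were the largest group in each cluster. In the Kcnj8-led cluster, 80 E4 cells had UMIs of both Cox4i1 and Cox4i2, 30 had Cox4i1 alone, 15 had Cox4i2 alone and 19 had neither. The same cluster held 40 such E3 cells with both, 11 with Cox4i1 alone, 12 with Cox4i2 alone and 14 with neither. In the Tagln-led cluster, 28 E4 cells had both, 21 had Cox4i1 alone and 0 had Cox4i2 alone. Of its E3 cells, 11 had both, 4 had Cox4i1 alone and 2 had Cox4i2 alone. With cells thinned, cells with both were the largest group only in the Kcnj8-led cluster of E4, at 40 against 25 with Cox4i2 alone. In the Kcnj8-led cluster of E3, 14 thinned cells had both and 22 had Cox4i2 alone. In the Tagln-led cluster, 8 thinned E4 cells had both and 21 had Cox4i1 alone. Of its thinned E3 cells, 2 had both and 7 had Cox4i1 alone. The largest group thus moved with depth. Among Kcnj8-led cells with at least 5 UMIs of the pair, the median Cox4i2 share per cell was at parity over 43 E4 cells and 45.5% over 23 E3 cells, and 40 of the E4 cells and 22 of the E3 cells lay strictly between 0 and 100%. The value near parity of the whole cluster was thus also seen within single cells. In the Tagln-led cluster the median was 12.5% over 35 E4 cells, 13 of them at 0%, and 16.7% over 9 E3 cells, 1 of them at 0%.

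Cox4i2 and Ndufa4l2 were often counted in the same cells. In the Kcnj8-led cluster, 87 of 121 E4 cells with a UMI of either gene had both, and 50 of 66 E3 cells did. So did 26 of 40 E4 cells and 10 of 16 E3 cells of the Tagln-led cluster. With cells thinned to 1000 UMIs, both genes were seen in 52 of 94 E4 and 31 of 51 E3 cells of the Kcnj8-led cluster and in 9 of 23 E4 and 3 of 9 E3 cells of the Tagln-led cluster, so this overlap moves with depth. No single mural-like cell carried the result, as the highest cell held 2.71% of the Cox4i2 UMIs in E4 and 6.62% in E3. At least 1 Cox4i2 UMI was seen in 62.1% of E4 and 68.4% of E3 mural-like cells, against 3.82% of E4 and 2.70% of E3 endothelial-like cells at a median of 3767 UMIs in E4 and 3948 in E3. For Ndufa4l2 the share of cells was 76.3% in E4 and 81.1% in E3 in the mural-like class, against 7.71% in E4 and 6.88% in E3 in the endothelial-like class. With every cell thinned to 1000 UMIs, which left out 34 E4 and 14 E3 mural-like cells below that depth, Cox4i2 was seen in 47.6% of E4 and 50.6% of E3 mural-like cells, against 0.613% of E4 and 0.488% of E3 endothelial-like cells. Ndufa4l2 was then seen in 61.0% of E4 and 65.4% of E3 mural-like cells. Endothelial-like cells also held pericyte markers, at a summed level of 771 CPM in E4 and 685 CPM in E3. Per UMI of Vtn, Rgs5, Kcnj8, Abcc9 and Higd1b together, they had 0.0284 Ndufa4l2 UMIs in E4 and 0.0259 in E3. The Kcnj8-led cluster had 0.0587 in E4 and 0.0611 in E3. Rgs5 held 5397 of these 6552 marker UMIs in E4 and 3156 of 3855 in E3 in endothelial-like cells. In the Kcnj8-led cluster it held 2028 of 7835 in E4 and 996 of 4241 in E3. The endothelial-like ratio thus rests mainly on Rgs5, and a ratio without Rgs5 was not made. The part of pericyte RNA in the endothelial-like values was not tested.

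A further cluster of 153 E4 and 103 E3 cells passed 8 endothelial and 9 mural markers and was left out of both classes. Its cells were deep, with a median of 9866 UMIs in E4 and 10248 in E3. In these cells Cox4i2 made up 23.8% of the Cox4i pair in E4 (289 of 1215 UMIs) and 25.9% in E3 (242 of 935 UMIs). Ndufa4l2 made up 52.6% of its pair in E4 and 54.2% in E3. Both shares lay between those of endothelial-like cells and those of the Kcnj8-led cluster. The summed endothelial markers stood at 14982 CPM in E4 and 15612 CPM in E3 in this cluster, and the summed mural markers at 10925 CPM in E4 and 10093 CPM in E3, against 28827 CPM in E4 and 27284 CPM in E3 in mural-like cells. Whether these barcodes hold an endothelial cell together with a pericyte was not tested.

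**Figure D3:**
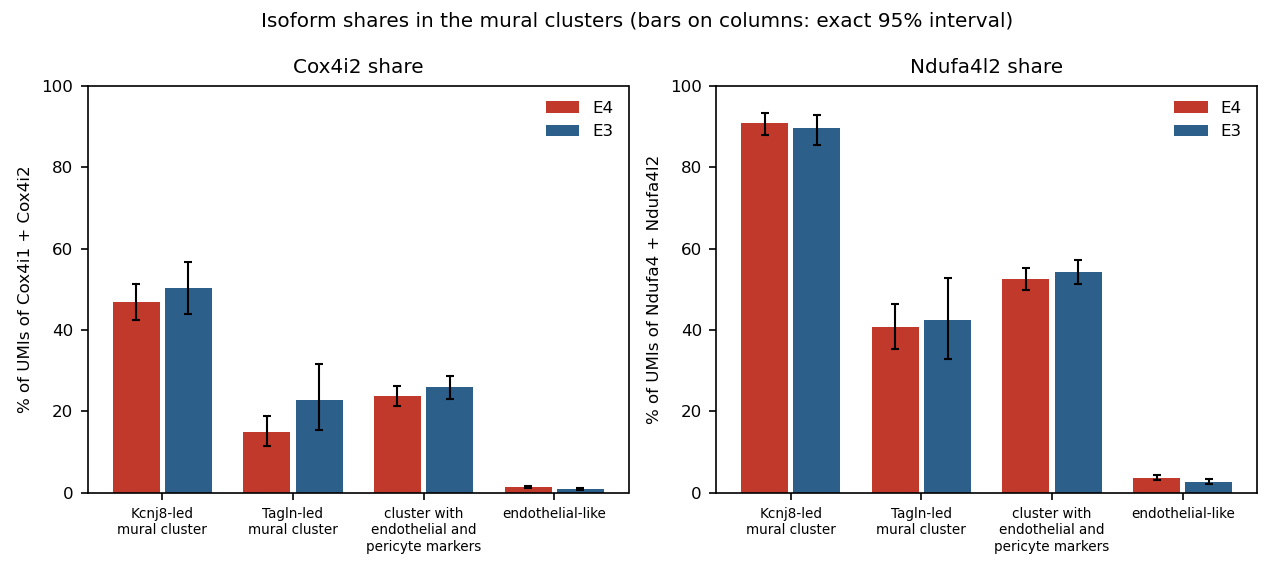
Share of Cox4i2 in the UMIs of Cox4i1 plus Cox4i2 and of Ndufa4l2 in the UMIs of Ndufa4 plus Ndufa4l2 (percent, bars from 0), with exact 95% intervals of counting error, in the Kcnj8-led cluster, the Tagln-led cluster, the cluster with endothelial and pericyte markers and endothelial-like cells, with E4 left of E3. The shares are highest in the Kcnj8-led cluster (46.9% in E4 and 50.4% in E3 for Cox4i2) and lowest in endothelial-like cells (1.34% in E4 and 0.866% in E3).

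When the mural-like cells were clustered alone, 5 sub-clusters were found, which are given by number because their leading genes are not those of a mural type (Saa1, Dcn and Slc6a13 led sub-cluster 1, and Mal, Ptgds and Pecam1 were among those leading sub-cluster 3). Sub-cluster 1, with 65 E4 and 39 E3 cells, passed 9 pericyte markers, and its Cox4i2 share was 51.7% in E4 and 57.3% in E3. Its Ndufa4l2 share was 97.2% in E4 and 98.2% in E3, the highest of the 5. Sub-cluster 3, which passed 7 smooth muscle markers, had Cox4i2 shares of 17.6% in E4 and 22.5% in E3, and sub-cluster 5, which passed 10 and had Fosl2 and Atf3 among its leading genes, had 9.72% in E4 and 21.9% in E3. Sub-cluster 1, the only one that passed more than 1 pericyte marker, thus stood above sub-clusters 3 and 5 in both libraries. Sub-cluster 2, which passed 1 pericyte marker and was shallow, resembled sub-cluster 1 with 48.0% in E4 and 56.5% in E3. Sub-cluster 4, which passed none and had Pax6, Sox1 and Hes5 among its leading genes, had 24.7% in E4 and 20.5% in E3.

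Markers of other cells were also counted in the mural-like class. The summed levels were 1708 CPM in E4 and 2089 CPM in E3 for the astrocyte list (2346 CPM in E4 and 3285 CPM in E3 in the Kcnj8-led cluster, and 1129 CPM in E4 and 216 CPM in E3 in the Tagln-led cluster), 461 CPM in E4 and 790 CPM in E3 for microglia, 695 CPM in E4 and 395 CPM in E3 for endothelium, and 961 CPM in E4 and 1460 CPM in E3 for oligodendrocytes. In the Tagln-led cluster of E3, which has only 18 cells, 4 of 8 endothelial markers were at 0 while the oligodendrocyte list stood at 2677 CPM, against 901 CPM in E4. Haemoglobin genes summed to 27.4 CPM in E4 and 256 CPM in E3. The part of such RNA in the isoform shares was not tested. In the class next highest for Ndufa4l2, endothelial-like cells, its level was 21.3 CPM in E4 and 17.3 CPM in E3. With mural-like cells limited to those without a UMI of Cldn5, Flt1 and Pecam1 (139 in E4 and 73 in E3), the Cox4i2 share and the Ndufa4l2 level moved by less than their intervals.

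The muscle isoforms had few or no UMIs in mural-like cells. Cox6a2 had 0 of 198 UMIs of the Cox6a pair in E4, which allows a share of up to 1.52%, and 1 of 79 UMIs in E3, with an interval that reaches 6.85%. Cox7a1 had 2 UMIs in each library, which is 0.529% of the 378 Cox7a1 and Cox7a2 UMIs in E4 and 1.40% of 143 in E3, with an upper bound of 4.96%. In the Tagln-led cluster Cox6a2 had 0 of 115 UMIs in E4, which allows up to 2.61%, and 0 of 34 in E3, which allows up to 8.82%. Cox7a1 there had 1 of 229 UMIs in E4 and 0 of 53 in E3, which allows up to 5.66%. At the E3 depth a Cox6a2 share as low as that of microglia-like cells would not have been detectable in this cluster.

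Cox6a2 was instead found in microglia-like cells. It had 201 UMIs in E4 and 131 in E3 there, at 10.8 CPM in E4 and 10.4 CPM in E3, and made up 6.15% (5.35 to 7.03%) of the Cox6a pair in E4 and 6.04% (5.07 to 7.13%) in E3. With cells thinned to 1000 UMIs the E3 share was 3.46%. The other classes compared were at or below 0.450% in E4 and 1.89% in E3, and the highest of the E3 values came from 9 UMIs in meningeal-like cells, 8 of them in 1 cell. Macrophage-like cells, the other myeloid class compared, had no Cox6a2 UMI among 164 Cox6a UMIs in E4 and 137 in E3. At least 1 Cox6a2 UMI was seen in 3.98% of E4 and 3.04% of E3 microglia-like cells, against 0.234% of E4 and 0.379% of E3 astrocyte-like cells. After thinning to 1000 UMIs these shares were 1.001% in E4 and 0.556% in E3 for microglia-like cells and 0.0296% in E4 and 0.0701% in E3 for astrocyte-like cells. A single cell held 5.97% of the microglial UMIs in E4 and 11.5% in E3. Itgad, on the strand opposite Cox6a2, had 3 UMIs in E4 and 2 in E3 in microglia-like cells, while oligodendrocyte-like cells had 160 Itgad UMIs in E4 and 137 in E3 beside 1 Cox6a2 UMI in E4 and 4 in E3.

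The Cox6a2 share varied several-fold among the microglia-like clusters, which together held only 201 Cox6a2 UMIs in E4 and 131 in E3. It was 9.05% in E4 and 11.6% in E3 in cluster 10, led by Atf3 and Egr1, which are immediate-early genes, and the chemokine Ccl4, and 8.47% in E4 and 10.4% in E3 in cluster 8, led by Tyrobp and Trem2. It was 5.16% in E4 and 4.99% in E3 in cluster 2 and lowest in cluster 14, led by Csf2rb and Hk3, with 2.98% in E4 and 1.66% in E3. Cluster 5, led by Junb, Jun and Ccl3, had 7.03% in E4 and 4.68% in E3. A small sub-cluster split from the astrocyte-like class had Gpr50, Nkx2-4 and Rax among its leading genes and passed 5 ependymal and 4 endothelial markers, so its cells are not clearly astrocytes. With 31 E4 and 18 E3 cells, it had a Cox6a2 share of 14.9% in E4 and 17.8% in E3, from only 10 UMIs in E4 and 8 in E3.

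Cox7a1 was highest in choroid plexus-like cells, the secretory epithelium of the ventricles. It had 638 UMIs in E4 and 559 in E3, at 104 CPM in E4 and 108 CPM in E3, or 7.92% of the Cox7a1 and Cox7a2 UMIs in E4 and 7.55% in E3. At least 1 UMI was seen in 58.5% of E4 and 56.2% of E3 choroid plexus-like cells, which are deep, and in 9.30% of E4 and 9.54% of E3 cells after thinning. Oligodendrocyte-like cells had it in 1.15% of E4 and 1.004% of E3 cells before thinning. Ependymal-like cells, the ciliated lining next to the plexus, followed at 25.1 CPM in E4 and 32.1 CPM in E3 and had a similar share, 6.73% in E4 and 7.63% in E3. Astrocyte-like cells had 10.6 CPM in E4 and 11.4 CPM in E3, with a share of 2.37% in E4 and 2.39% in E3. Among astrocytes, a sub-cluster led by Cyp26b1 and Adm stood at 23.0 CPM in E4 and 24.2 CPM in E3.

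Cox7a2l, whose product joins the oxidase to complex III in respiratory supercomplexes, took a share of the Cox7a1, Cox7a2 and Cox7a2l UMIs that differed widely between classes. It was 56.6% in E4 and 55.2% in E3 in microglia-like cells, 52.7% in E4 and 47.7% in E3 in macrophage-like cells, and 48.7% in E4 and 46.2% in E3 in endothelial-like cells. Mural-like cells had 31.9% in E4 and 30.9% in E3, below the endothelium they wrap, with 31.7% in E4 and 27.4% in E3 in the Kcnj8-led cluster and 32.0% in E4 and 36.1% in E3 in the Tagln-led cluster. The lowest shares were in astrocyte-like cells, with 20.2% in E4 and 19.9% in E3, and in choroid plexus-like cells, with 17.2% in E4 and 16.7% in E3. The level of Cox7a2l itself was highest in neuroprogenitor-like cells, at 375 CPM in E4 and 412 CPM in E3.

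The ubiquitous subunits of mural-like cells were within 1.5-fold of the other cells. Cox6a1, which stabilises the dimer, was at 319 CPM in E4 and 285 CPM in E3, against 275 CPM in E4 and 282 CPM in E3 in the other named cells. Cox6b1, which faces cytochrome c, was at 472 CPM in E4 and 501 CPM in E3, against 435 CPM in E4 and 493 CPM in E3. Cox7a2 was at 606 CPM in E4 and 516 CPM in E3, against 437 CPM in E4 and 488 CPM in E3. Cox8a, the smallest subunit, was at 1480 CPM in E4 and 1511 CPM in E3, against 1101 CPM in E4 and 1233 CPM in E3, and mural-like cells ranked second for it, after choroid plexus-like cells with 3931 CPM in E4 and 4024 CPM in E3. Choroid plexus-like cells were highest for Cox4i1, Cox6a1, Cox6b1, Cox7a2 and Cox8a in both libraries, and for Cox4i1 they reached 2942 CPM in E4 and 2981 CPM in E3. Below them the intervals of neighbouring classes often overlapped. For Cox4i1 in E4, neuroprogenitor-like, mural-like and oligodendrocyte-like cells lay at 971, 961 and 956 CPM with overlapping intervals.

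Between E4 and E3 none of the members moved far in mural-like cells. With a minimum of 50 UMIs in E4 and E3 together, 8 members could be compared and 0 were past 1.5-fold, against 13.4% of the 3071 genes past that minimum. By log2 ratio of E4 over E3, 4 were above 0 and 4 below it, with a median of 0.07, and the median of all genes was 0.00. Cox4i1 was higher in E4 by 0.32 (0.09 to 0.55), and Ndufa4l2 lower in E4 with -0.22 (-0.42 to -0.02), the only 2 members whose interval lay to 1 side of 0. Neither was steady across alternatives, as Cox4i1 was at 0.07 with the cluster of endothelial and pericyte markers added and Ndufa4l2 at 0.13 with cells thinned. Cox4i2 had -0.22 (-0.50 to 0.08). Cox7a2 had 0.23 (-0.05 to 0.52) and Cox7a2l 0.28 (-0.14 to 0.72). Cox6a1 had 0.16, Cox6b1 -0.09 and Cox8a -0.03. The lower Cox4i2 share of E4 mural-like cells thus went with Cox4i1 at 1.24 times and Cox4i2 at 0.861 times its E3 level.

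Within the clusters these ratios were partly different. In the Kcnj8-led cluster Ndufa4l2 had a log2 ratio of 0.00 (-0.22 to 0.23), and in the Tagln-led cluster -0.04 (-0.55 to 0.50). The lower Ndufa4l2 of the whole E4 class was therefore not seen within either cluster, and the Tagln-led cluster, with the lower level, was the larger fraction of cells in E4, at 54 of 198 against 18 of 95 in E3. Cox4i1 kept its sign, with 0.31 (-0.00 to 0.63) in the Kcnj8-led and 0.28 (-0.06 to 0.64) in the Tagln-led cluster. Cox4i2 had 0.10 (-0.21 to 0.43) in the Kcnj8-led cluster and -0.48 (-1.17 to 0.25) in the Tagln-led cluster, which differ in sign. Cox7a2 had 0.49 (0.06 to 0.95) in the Tagln-led cluster, with 701 CPM in E4 and 498 CPM in E3. Past 1.5-fold were 0 of 8 members in each cluster, against 12.4% of genes in the Kcnj8-led cluster and 17.5% in the Tagln-led cluster. The plot of ratios in the mural clusters shows nearly every interval crossing 0.

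**Figure D4:**
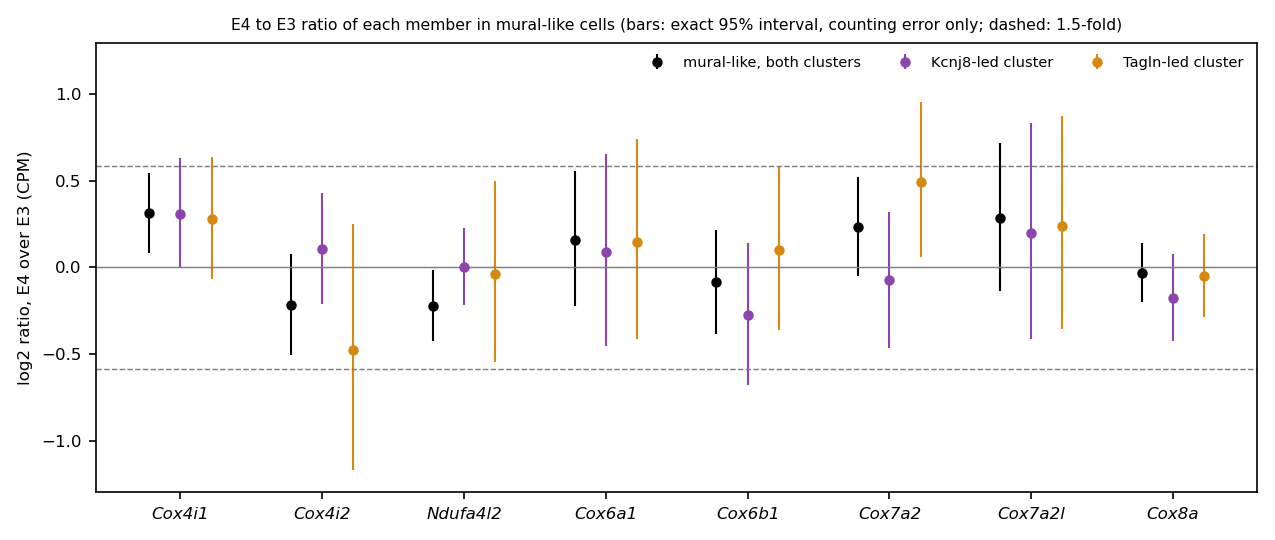
Log2 ratio of E4 over E3 CPM for 8 members in mural-like cells and in the Kcnj8-led and Tagln-led clusters, with exact 95% intervals of counting error and dashed lines at 1.5-fold. No point lies past 1.5-fold, and Ndufa4l2 is at -0.22 in the whole class, 0.00 in the Kcnj8-led cluster and -0.04 in the Tagln-led cluster.

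In the other classes the members also differed little between libraries, and mostly with lower values in E4. In astrocyte-like cells all 8 members with enough UMIs were lower in E4, 5 of them with an interval below 0. Their median log2 ratio was -0.12, against 0.01 for all genes, and the share of all genes lower in E4 was not counted. Past 1.5-fold were 0 of these members, against 3.17% of genes. Cox4i1 was lower in E4 in 9 of the 10 other classes, while mural-like cells had it higher in E4. In microglia-like cells 1 of 8 members was past 1.5-fold, against 4.1% of genes. This was Cox7a1, which had 33 UMIs in E4 and 35 in E3 there and a log2 ratio of -0.65 (-1.38 to 0.08). Past 1.5-fold were 0 of 9 members in endothelial-like cells, against 4.47% of genes, and 0 of 7 in choroid plexus-like cells, against 5.38%. The same count was 0 of 7 in ependymal-like cells, against 5.93% of genes, and 0 of 6 in each of meningeal-like (7.02% of genes), macrophage-like (11.9%), neuroprogenitor-like (9.1%) and oligodendrocyte-like cells (6.73%). It was 0 of 2 in erythroid-like cells, against 30.3% of genes, and 0 of 8 in the cluster with endothelial and pericyte markers, against 7.24%. No class other than microglia-like cells thus had a member past 1.5-fold. Over all cells 0 of 10 members were past it, against 4.21% of genes. Ndufa4l2 over all cells had a log2 ratio of 0.24 (0.12 to 0.35), opposite in sign to that within mural-like cells, while mural-like cells made up 1.46% of E4 cells and 0.842% of E3 cells.

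The other subunits and helpers of the oxidase were examined as lists in mural-like cells. All 5 nuclear subunits without a tissue isoform were close to their E3 level, with 1 higher and 4 lower in E4, 0 past 1.5-fold and a median log2 ratio of -0.04. Cox6c was at 1077 CPM in E4 and 1109 CPM in E3, and Cox7c at 698 CPM in E4 and 699 CPM in E3. The mitochondrially encoded catalytic subunits were all higher in E4, mt-Co1 by a log2 ratio of 0.47, mt-Co2 by 0.40 and mt-Co3 by 0.39. They were also all higher in E4 in every other class compared except macrophage-like cells. The median log2 ratio in those classes ran from 0.08 in astrocyte-like to 0.54 in erythroid-like cells. Mitochondrial transcripts as a whole made up 10.8% of mural-like UMIs in E4 and 8.34% in E3. Whether this follows from cell quality was not tested. Of 25 assembly factors 7 had at least 50 UMIs, 6 of them higher and 1 lower in E4, with 1 past 1.5-fold, against 13.4% of all genes in these cells. This was Cox20, a chaperone of the second core subunit, at 62.9 CPM in E4 and 102 CPM in E3, with a log2 ratio of -0.70 (-1.44 to 0.05).

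Genes of oxygen response were counted because Ndufa4l2 and Cox4i2 respond to oxygen in other tissues. Of 18 genes known to be induced by low oxygen, 7 had at least 50 UMIs in mural-like cells, 4 higher and 3 lower in E4, with a median log2 ratio of 0.01. Of these 7, 2 were past 1.5-fold in opposite directions, against 13.4% of all genes. They were Pgk1, a glycolytic kinase, with 77.4 CPM in E4 and 157 CPM in E3 (-1.02, -1.65 to -0.40), and Eno1, an enolase, with 121 CPM in E4 and 73.2 CPM in E3 (0.72, -0.00 to 1.51). Of 11 oxygen sensing factors 5 had enough UMIs and 0 were past 1.5-fold. Epas1, an oxygen-regulated transcription factor abundant in vessels, was at 738 CPM in E4 and 618 CPM in E3, and Chchd2, a mitochondrial protein that in human cells also acts on the COX4I2 promoter, at 1272 CPM in E4 and 1226 CPM in E3. Immediate-early and stress genes, which dissociation induces, summed to 6096 CPM in E4 and 4782 CPM in E3. Of 13 with enough UMIs, 11 were higher in E4, 6 of them with an interval above 0, and their median log2 ratio was 0.40. Past 1.5-fold were 0 of these 13, against 13.4% of all genes. The shares of all genes higher in E4 or with an interval above 0 were not counted. By cluster, the immediate-early and stress genes summed to 2163 CPM in E4 and 1588 CPM in E3 in Kcnj8-led cells and 9668 CPM in E4 and 9786 CPM in E3 in Tagln-led cells. Their part in the isoform values was not tested.

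Genes with the pattern most like each isoform were sought over 22 points, 11 classes in each of 2 libraries, among 13979 genes, as a description, since the points share libraries and classes. For Cox4i2 the nearest included Atp13a5 (Pearson r of 0.95), Adora2a (0.95), Tbx3os1 (0.94) and Gm13861 (0.94). For Ndufa4l2 they were Gja4 (0.98), Des (0.98), Abcc9 (0.97), Tbx2 (0.97) and Ajap1 (0.97). Because the mural-like class stands far above the others for Cox4i2 and Ndufa4l2, these values rest mainly on that class. Atp13a5, Des and Abcc9 are also among the markers used for the mural class or its sub-clusters. For Cox7a1 the nearest were Steap1 (0.92), Ppp1r1b (0.91), Slc35f3 (0.90), F5 (0.90) and Cldn2 (0.90). Cox6a2 had no gene as near, with Gm10605 (0.83), Ebf3 (0.77), Siglecf (0.77), A830008E24Rik (0.76) and Gm3164 (0.75).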

How the data were processed

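The 10 genes and the gene lists were chosen with earlier results of these data known. The counts deposited by the authors are UMIs per gene and barcode, made with Cell Ranger 6.1.1 (E4) and 6.1.2 (E3) on mm10 according to the submitters' processing notes. The gene annotation, the use of strand and the counting of intronic reads are not given in the sources used here. From the deposited matrices, the study's stated filter was applied (a total of 50 to 50000 UMIs, with no more than 30% of them mitochondrial), which removed 274 E4 and 197 E3 barcodes. The study then removed small clusters as doublets and kept fewer cells than this filter leaves, and the classes here were rebuilt, so they may differ from the study's.

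Both libraries were clustered together (total scaled to 10000, 2000 variable genes, 20 principal components, 15 neighbours, Leiden resolution 1), with 23 oxidase genes left out. A cluster was named "X-like" when at least 3 fixed markers were 2-fold higher than elsewhere and seen in 20% of cells. Called doublets (707 in E4, 407 in E3) were kept. Classes needed 100 cells per library, and the mural-like class was kept with 95 in E3 because it is the subject. UMIs were summed per class, with exact Poisson intervals for levels and exact binomial intervals for shares and ratios, and 3 UMIs as the limit for a count of 0. No test was made, since each genotype has 1 library. All 10 genes are named, and other list genes are named if among up to 4 abundant ones or at least 1.5-fold apart. For each of Cox4i2, Cox6a2, Cox7a1 and Ndufa4l2, the 5 genes of highest Pearson correlation in log2(CPM + 1) are named, among genes with at least 200 UMIs, except that 1 of those for Cox4i2 is not reported here. Clusters' leading genes identify clusters only. The intervals were tested on counts simulated from the same Poisson and binomial models that they assume. That test cannot show how they hold with spread between cells. Of 32285 genes, 32158 matched GENCODE vM21 by identifier. Python 3.11.15, numpy 2.4.6, scipy 1.17.1, pandas 2.3.3, scikit-learn 1.9.0, leidenalg 0.10.2 and matplotlib 3.10.9 were used.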

Additional observations from a re-analysis of the deposited data

Results flagged for a closer look

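The cluster with both endothelial and pericyte markers belongs to no class and entered none of the class comparisons, yet it carried both mural isoforms well above the endothelial-like level. Cox4i2 made up 23.8% of the Cox4i1 and Cox4i2 UMIs there in E4 and 25.9% in E3, and Ndufa4l2 made up 52.6% of the Ndufa4 and Ndufa4l2 UMIs in E4 and 54.2% in E3.

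Leukocyte-like cells were too few for the comparison of classes. In E3 they held 18 Cox6a2 UMIs, all in 1 cell, and in E4 none among 30 UMIs of the Cox6a pair.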

How the results depend on the processing

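The values of mural-like cells, the Cox6a2 share of microglia-like cells and the Cox7a1 share of choroid plexus-like cells were recomputed under 15 alternatives, 12 planned and 3 chosen after seeing the data (adding the cluster with endothelial and pericyte markers, leaving out barcodes that both libraries hold, and weighting both mural clusters alike). Of 349 values, 314 stayed within the limit set for a move and 35 went past it. The Ndufa4l2 level was 1033 CPM in E4 with the stricter cell filter, 1220 CPM in E4 and 1396 CPM in E3 with cells weighted alike, 1354 CPM in E4 with cells thinned, and 1085 CPM in E4 and 1255 CPM in E3 with genes of mitochondria and haemoglobin and those overlapping rRNA taken out of the totals. It was 560 CPM in E4 and 623 CPM in E3 with the added cluster, and 978 CPM in E3 with both mural clusters weighted alike. The Ndufa4l2 share of its pair ran from 59.7 to 81.6% in E4 and from 60.1 to 86.0% in E3. In each library it went past its limit in 4 of 12 alternatives. The Cox4i2 share was 36.9% in E4 and 50.02% in E3 with cells weighted alike, 44.9% in E4 and 55.3% in E3 with cells thinned, and 27.7% in E4 and 30.3% in E3 with the added cluster, so that it was lower in E4 in each of these, while in E3 it passed parity with Cox4i1 with cells thinned. Among members past 1.5-fold, 1 was found with cells weighted alike (Cox4i1, log2 ratio 0.64) and 1 with cells thinned (Cox6b1, -0.60). In sub-clusters with smooth muscle markers the Cox4i2 share in E4 was 10.7% with each library clustered alone and 20.6% with cells thinned. In the sub-cluster with pericyte markers it was 60.3% in E4 with cells thinned. The log2 ratio of Ndufa4l2 was 0.13 with cells thinned, opposite in sign to its main value, and -0.02 with both mural clusters weighted alike. That of Cox4i1 was 0.07 with the added cluster, that of Cox6a1 reached -0.08 with cells thinned, and that of Cox8a, near 0 throughout, also changed sign under some alternatives. The microglial Cox6a2 share in E3 was 3.46% with cells thinned. The cause of these moves was not tested.

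No paired analysis was possible because each genotype has 1 library, and no replicate could be left out. The depth limits the E3 class most, with 95 cells and 18 in its Tagln-led cluster, where 26 Cox4i2 UMIs set the share. Intervals leave out differences between mice, pools and library preparations, which these data do not measure.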

Other observations

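Cox8b, the heart and muscle paralogue of Cox8a, and Cox6b2, the testis paralogue of Cox6b1, were also found in choroid plexus-like cells, beside the Cox7a1 described above. Cox8b stood at 307 CPM in E4 and 276 CPM in E3 there, which is 7.25% of the Cox8a and Cox8b UMIs in E4 and 6.42% in E3, and it had no UMI in mural-like cells of either library beside 918 Cox8a UMIs in E4 and 413 in E3. Cox6b2 stood at 281 CPM in E4 and 205 CPM in E3, or 20.5% of the Cox6b1 and Cox6b2 UMIs in E4 and 14.7% in E3, and had 11 UMIs in E4 and 7 in E3 in mural-like cells.

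Sub-clusters of the astrocyte-like class held Cox4i2 with few or no UMIs of Ndufa4l2. The sub-cluster led by Crym, Lmo1 and Six3, with 134 E4 and 126 E3 cells, had 22 Cox4i2 UMIs in each library, at 33.9 CPM in E4 and 34.1 CPM in E3, and 2 Ndufa4l2 UMIs in E4 and 1 in E3. The sub-cluster led by Thbs4 had 12 Cox4i2 UMIs in E4 and 21 in E3, at 26.4 CPM in E4 and 26.6 CPM in E3, and no Ndufa4l2 UMI in either library. The pericyte markers Vtn, Rgs5, Kcnj8, Abcc9 and Higd1b had only 17 UMIs in E4 and 9 in E3 in the Crym-led sub-cluster. Per UMI of these markers it had 1.29 Cox4i2 UMIs in E4 and 2.44 in E3. The Kcnj8-led mural cluster had 0.0304 in E4 and 0.0295 in E3. The part of pericyte RNA in these values was not tested.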
